A study of Mus musculus with 2 samples.

Results

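The amino acid transporters described here are the genes of 7 solute carrier (Slc) families, Slc1, Slc3, Slc6, Slc7, Slc36, Slc38 and Slc43, and their members were chosen by gene symbol alone. Of 40879 gene symbols in the count table, 61 belonged to these families. Mouse intestine of 2 genotypes was compared, wild type (WT) and ERAP1+/-, with no treatment named in the labels. Mice labelled ERAP1+/- are described as carrying 1 disrupted copy of Erap1, the gene of an endoplasmic reticulum peptidase that trims peptides for antigen presentation. They came from an embryonic stem cell clone with the tm1a allele, crossed with a Cre strain whose promoter the methods do not name, so that exons 6 and 7 between the loxP sites were removed. WT and ERAP1+/- mice were 8 weeks old, on the C57BL/6 background and kept in a specific pathogen-free facility, and the methods call them germ-free. RNA of 3 mice was pooled for each genotype and sequenced as 1 library from the 3' ends of transcripts.

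Cells take up and release amino acids through these carriers because amino acids do not cross the membrane unaided. In the intestine, carriers on the luminal side of the epithelial cell take amino acids up with sodium or protons, and carriers on the blood side release them, often by exchanging one amino acid for another. The Slc7 light chains carry the substrate and most of them need an Slc3 heavy chain to reach the membrane. The Slc6 family also holds carriers of creatine, taurine and neurotransmitters, and several Slc38 and Slc1 carriers move glutamine. The small intestine is the main site of amino acid absorption, and in the large intestine the carriers mainly feed the epithelium itself.

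Counted reads came to 8114826 in WT and 8907515 in the library labelled ERAP1+/-. Levels are given as CPM, the reads of a gene scaled to a common library size with TMM factors (trimmed mean of M values), and differences as ERAP1+/- minus WT on the log2(CPM + 1) scale. The method reads each transcript at its 3' end, so levels were not divided by transcript length, and a comparison of levels between genes holds only as far as their 3' ends were captured alike. Every difference compares 1 pooled library with 1 pooled library, without a replicate check. The 95% intervals are exact, cover counting error only and say nothing of the variation between mice. Fewer cells of a type and less RNA per cell cannot be told apart in such bulk libraries.

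Erap1 was counted 229 times in WT and 2 times in the library labelled ERAP1+/-, 137-fold lower (95% interval 37.5 to 1139). Loss of 1 of a pair of copies would leave far more transcript, so the level goes against the heterozygous label, and every direction given here is that of the library so labelled. The last exon of Erap1 lies downstream of the removed exons, so the reads do not show the deletion itself. The female transcript Xist had 1635 and 6451 reads, while Uty, Kdm5d, Ddx3y and Eif2s3y, all on the Y chromosome, had 72 to 319 reads in WT and 1 to 29 in the library labelled ERAP1+/-. The sex of the pooled mice and the genotype therefore cannot be told apart.

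All 12 colonocyte markers were detected, with a summed level of 12968 CPM in WT and 7495 in the library labelled ERAP1+/-, and of the 11 past a log2 value of 4, 10 were lower by their intervals. Prdx6 alone made up 5310 and 3037 CPM of the colonocyte sum. The 12 markers of small intestine enterocytes summed to 203 and 167 CPM, and Sis, Apoa4 and Slc2a2 among them had no read. Of this sum, Slc5a1 alone made up 164 and 129 CPM. The 8 goblet cell markers summed to 8821 and 14323 CPM. Markers of suprabasal epidermis summed to 3089 and 47.9 CPM, with 7 of 16 at 0 in the library labelled ERAP1+/-, and those of skeletal muscle to 9300 and 214 reads, with 3 of 15 at 0. Smooth muscle markers summed to 11566 and 5921 CPM and macrophage markers to 232 and 290.0 CPM. Plasma cell markers summed to 523 and 2101 CPM, adipocyte markers to 123 and 223 CPM and markers of crypt base and proliferating cells to 263 and 378 CPM. Igha alone made up 215 and 1437 CPM of the plasma cell sum. Of the 7 plasma cell markers past a log2 value of 4, 5 were higher by their intervals and 2, Prdm1 and Sdc1, lower. All 4 adipocyte markers past that level were higher by their intervals, while Retn, below it, was lower with 61 and 30 reads. Over all genes past that level, 25.5% were higher by interval and 32.4% lower. The part of these lists in the higher transporters was not tested.

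**Figure D1:**
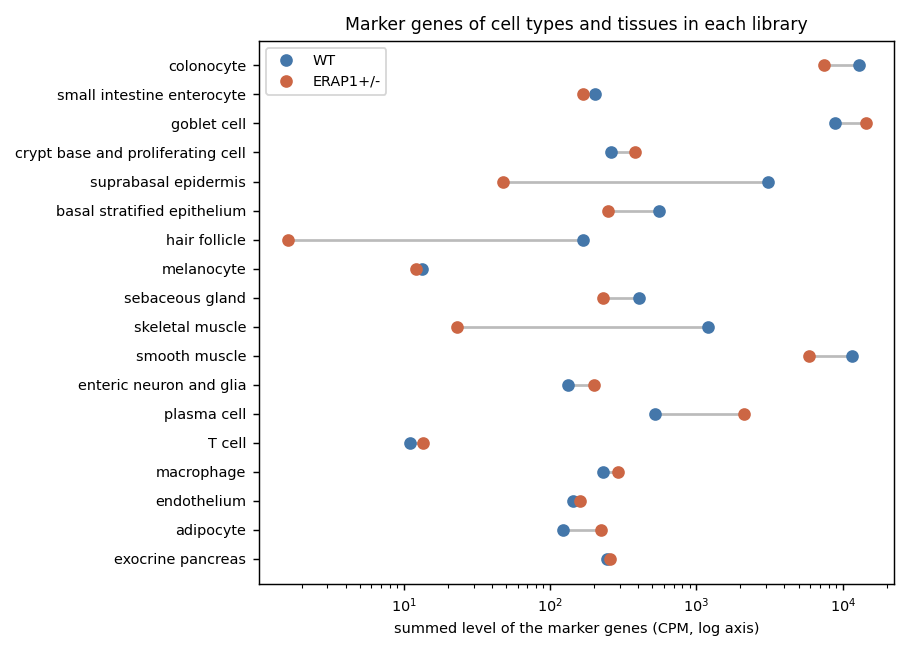
Summed level of each list of marker genes (CPM, log axis) in the WT library (blue) and the library labelled ERAP1+/- (orange), 1 pooled library each, with a grey line joining both. The epidermis, hair follicle and skeletal muscle lists lie far lower in the library labelled ERAP1+/-, and the colonocyte and smooth muscle lists moderately lower.

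The 61 transporters together had 9919 reads in WT and 11377 in the library labelled ERAP1+/-, or 0.122% and 0.128% of all counted reads. Their summed level was 1277 CPM and 1223 CPM, a ratio of 0.958 (95% interval 0.933 to 0.984). Reads were concentrated in few genes. Slc38a2, Slc6a8, Slc6a14, Slc6a6 and Slc38a1 held 57.7% of the transporter reads in WT and 56.7% in the library labelled ERAP1+/-.

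A log2 value of at least 4 in 1 or both libraries, or 15 CPM, was reached by 12 of the 61 transporters. Of these 12, 2 were more than 2-fold higher in the library labelled ERAP1+/- and none was more than 2-fold lower, which is 16.7% of the 12, against a background of 5.34% of the 8013 genes past the same level. By direction, 1.39% of those genes were more than 2-fold higher and 3.96% lower. The median difference of the 12 was 0.14 on the log2 scale and that of all 8013 genes -0.03. With 2 genes behind the count, the share says little of the transporters as a group. The 2 genes were Slc6a14 and Slc7a7. Slc7a7 reached the level of 4 only in the library where it was higher. Its log2 values were 3.59 in WT and 4.62 in the library labelled ERAP1+/-. The filter thus favoured a call of higher for Slc7a7, while Slc6a14 was past the level in both libraries.

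**Figure D2:**
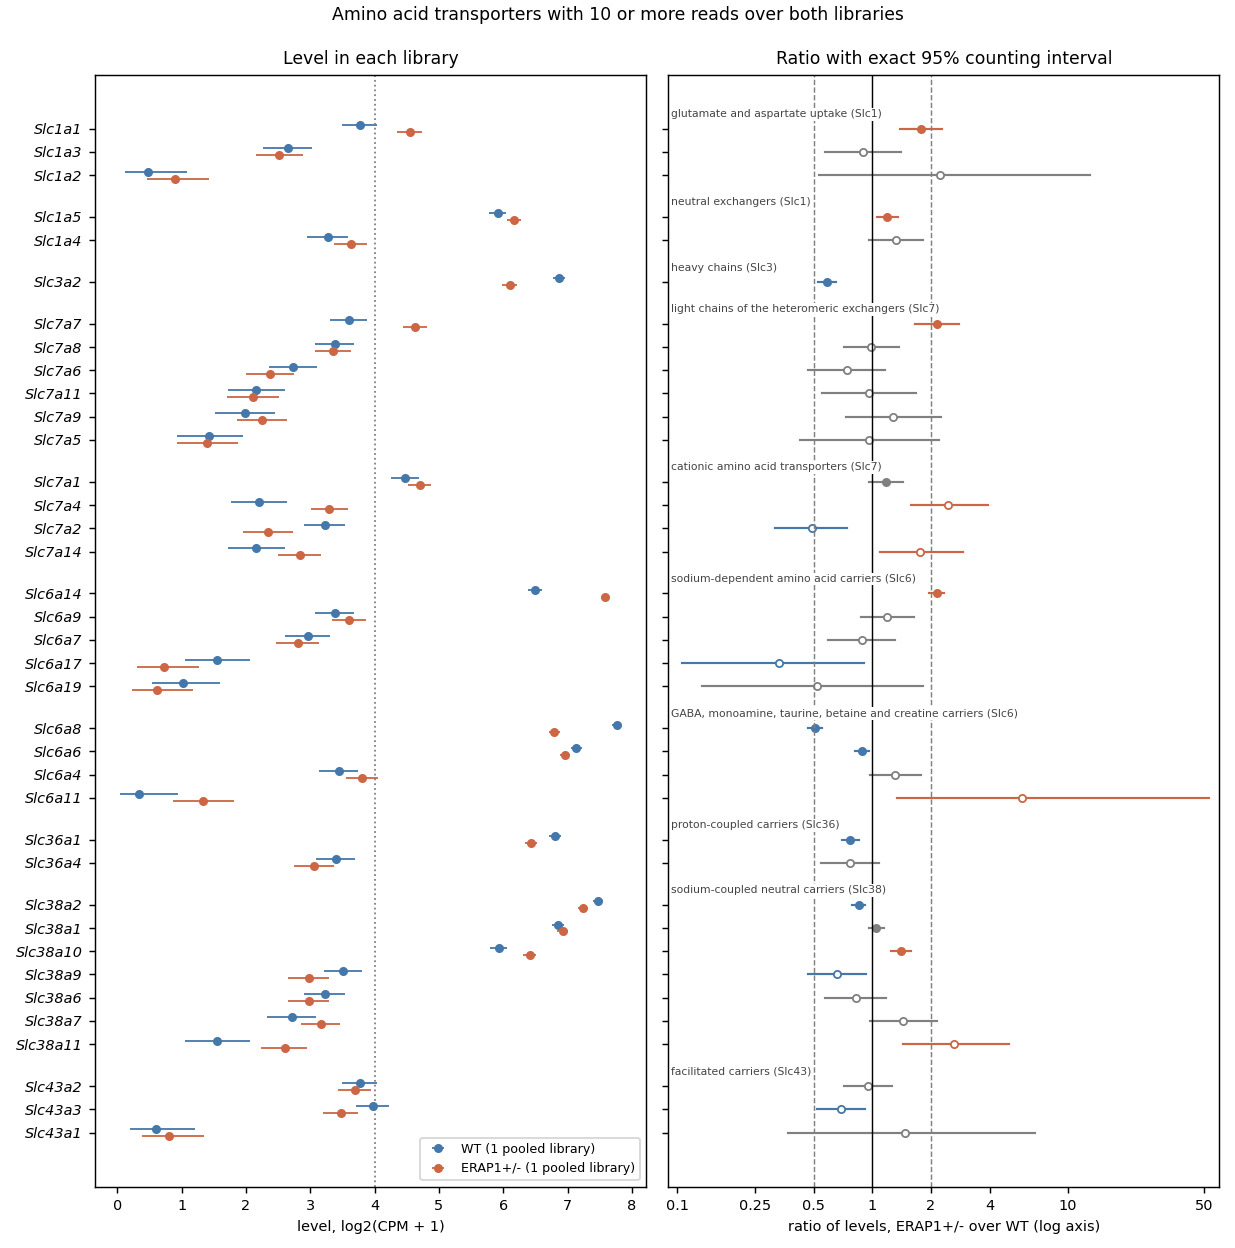
The 37 transporters with 10 or more reads over both libraries, grouped by role. On the left, the level in each library as log2(CPM + 1) with an exact Poisson 95% interval, WT in blue and ERAP1+/- in orange, and a dotted line at 4. On the right, the ratio of the levels on a log axis with its exact 95% counting interval, in orange where the interval lies above 1, in blue where it lies below 1 and in grey where it includes 1, with filled points for the 12 genes past the level of 4 and dashed lines at 2-fold. Slc6a14 and Slc7a7 are the filled points beyond the 2-fold line.

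Slc6a14, a sodium- and chloride-driven carrier that takes up neutral and cationic amino acids on the luminal side of epithelial cells, was counted 693 times in WT and 1769 times in the library labelled ERAP1+/-. In CPM the values were 89.2 and 190.2. By level it ranked 7 among the transporters in WT and 1 in the library labelled ERAP1+/-. The ratio was 2.13 (95% interval 1.95 to 2.33), a difference of 1.08 on the log2 scale, and the lower end of the interval reaches just below 2-fold. Slc6a14 spans positions 21714896 to 21742355 of chromosome X in GRCm38, on the plus strand, and its last exon, where reads of this method are placed, runs from 21740944 to 21742355. No other annotated gene overlaps this exon. Colonocyte markers were lower and goblet cell markers higher in the same library, and Xist was higher. Their part in the result was not tested.

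Slc7a7, the light chain that releases arginine, lysine and ornithine on the blood side of the epithelium in exchange for neutral amino acids and sodium, was counted 86 times in WT and 220 times in the library labelled ERAP1+/-. Its level was 11.1 CPM in WT and 23.6 in the library labelled ERAP1+/-, a ratio of 2.14 (95% interval 1.66 to 2.77) and a difference of 1.03 on the log2 scale. Both libraries held far fewer reads of it than of Slc6a14, and its interval is wider and reaches below 2-fold. The gene spans 54369442 to 54417780 of chromosome 14, read from the minus strand. Of the 443 bp of its last exon, 230 bp overlap exons of Oxa1l on the opposite strand. Oxa1l, which encodes a mitochondrial insertase, was counted 214 and 388 times, with a ratio of 1.51 (1.28 to 1.80). The kit keeps the strand, but whether the counting used it is not stated, so that reads of both genes may be mixed. Macrophages also express Slc7a7. Of 9 macrophage markers, 7 were past the level of 4, and 5 of these were higher by their intervals and none lower, with none past 2-fold. Over all genes past that level, 25.5% were higher by interval. Below it, Cd68 (ratio 0.984) and Adgre1 (ratio 0.891) had intervals that included 1. The part of the macrophage markers in the result was not tested.

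The promoter windows of the 2 genes that passed 2-fold are shown because they were searched for short motifs. Sequences are from RefSeq on GRCm38.p6, which gave windows for 43 of the 61 transporters and 8 of the 12 past the level of 4. Each covers 250 bases before and 50 bases after an annotated start, read 5' to 3' on the strand of the gene.
Slc6a14, chrX:21714650-21714949, plus strand, with a CCAAT box on the reverse strand in capitals: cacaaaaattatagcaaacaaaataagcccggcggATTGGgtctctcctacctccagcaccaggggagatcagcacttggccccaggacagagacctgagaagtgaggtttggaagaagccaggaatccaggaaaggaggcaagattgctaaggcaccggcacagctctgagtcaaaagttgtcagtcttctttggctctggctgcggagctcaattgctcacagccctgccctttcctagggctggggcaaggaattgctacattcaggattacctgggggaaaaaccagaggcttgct
Slc7a7, chr14:54417895-54418194, minus strand, 1 of its 5 annotated windows, with TGATGNAA in capitals: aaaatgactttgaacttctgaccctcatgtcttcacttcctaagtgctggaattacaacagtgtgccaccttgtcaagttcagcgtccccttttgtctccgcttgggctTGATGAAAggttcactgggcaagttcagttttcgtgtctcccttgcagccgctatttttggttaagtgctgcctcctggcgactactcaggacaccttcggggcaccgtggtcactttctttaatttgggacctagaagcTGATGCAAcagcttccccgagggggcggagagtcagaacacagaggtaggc
The motif TGATGNAA is the core of the element to which ATF4, the transcription factor of amino acid shortage, binds with C/EBP proteins. It begins at bases 110 and 250 of the Slc7a7 window and was found on either strand in 3.97% of all 32851 windows. Of the 13 windows of the 8 transporters past the level of 4, 2 held it. Both belong to Slc7a7, which has 5 of the 13 windows, and they overlap and share the TGATGCAA site, while its other 3 windows lack the motif. CCAAT was found in 37.4% of all windows and in those of 3 of the 8, Slc6a14, Slc38a10 and Slc7a1. Also searched were TGACNNNGC, the core of the antioxidant response element, found in 12.4% of all windows and in those of Slc36a1, Slc38a2 and Slc7a1, and the TATA box TATAAA, found in 13.6% and in Slc7a1. CAAAGTCCA, an HNF4 core, and TTTATGG, a CDX core, were found in 0.475% and 2.75% of all windows and in none of the 8 genes. These matches describe the letters and do not show binding.

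Slc6a8, the creatine carrier, had the highest level of all transporters in the WT library and ranked 5 in the library labelled ERAP1+/-. It had 1681 and 1022 reads, or 216 and 109.9 CPM. The level was 1.97-fold lower in the library labelled ERAP1+/- (95% interval 1.82 to 2.13), a difference of -0.97 on the log2 scale that stops just short of 2-fold. With scaling by the total count the difference was -0.85. Slc6a8 spans 73673150 to 73682502 of chromosome X, also on the plus strand, so that the X-linked Slc6a14 and Slc6a8 differed in opposite directions. Muscle takes up creatine through Slc6a8. All 10 smooth muscle markers were lower in the library labelled ERAP1+/-, and 11 of 11 skeletal muscle markers past the level of 4 were as well. Of 11 colonocyte markers past that level, 10 were also lower by their intervals. Over all genes past it, 32.4% were lower by interval. The part of these markers in the lower Slc6a8 was not tested. Slc6a6, the taurine carrier, had 1083 and 1147 reads and was 1.13-fold lower (95% interval 1.04 to 1.23). With scaling by the total count its interval included 1.

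Within the Slc6 family the order of the genes changed. Slc6a8 held 45.4% of the 3701 Slc6 reads in WT (Wilson 95% interval 43.8% to 47.0%) and 24.0% of 4258 in the library labelled ERAP1+/- (22.7% to 25.3%). Slc6a14 held 18.7% (17.5% to 20.0%) and 41.5% (40.1% to 43.03%). There were 2.43 reads of Slc6a8 for each read of Slc6a14 in WT (95% interval 2.22 to 2.65) and 0.578 in the library labelled ERAP1+/- (0.534 to 0.624). Such ratios within a library do not depend on the scaling.

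**Figure D3:**
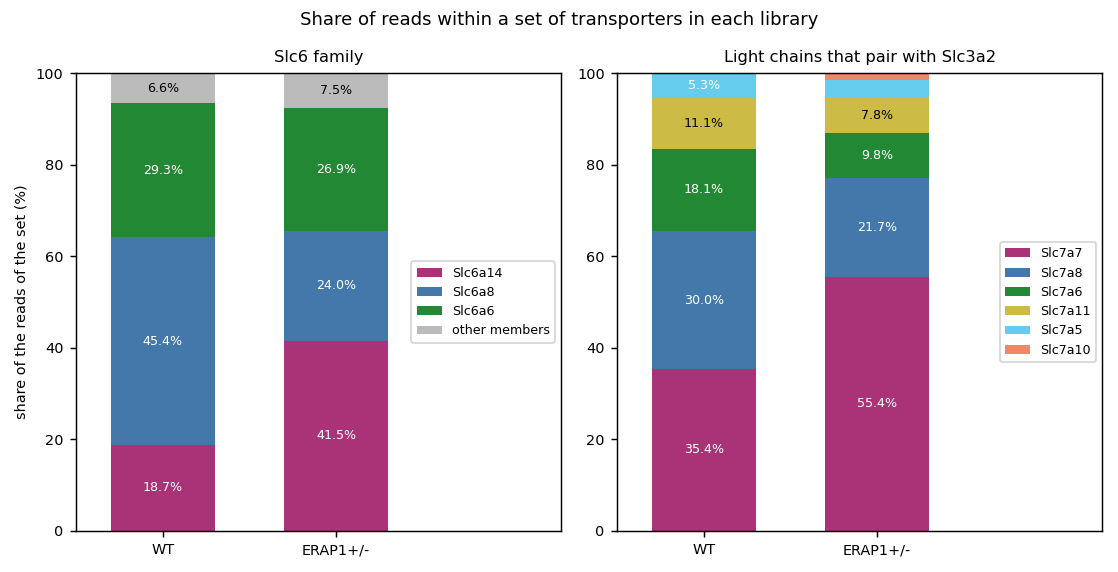
Share of the reads (%, stacked to 100) of each gene within the Slc6 genes on the left and within the light chains that pair with Slc3a2 on the right, in 1 pooled library per genotype. Slc6a14 rises from 18.7% to 41.5% of the Slc6 reads, and Slc7a7 from 35.4% to 55.4% of the light chain reads.

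The heavy chain Slc3a2 brings light chains such as Slc7a5, Slc7a7, Slc7a8 and Slc7a11 to the membrane. It was counted 894 times in WT and 627 times in the library labelled ERAP1+/-, or 115 and 67.4 CPM, and was 1.71-fold lower (95% interval 1.54 to 1.89). Markers of suprabasal epidermis and of skeletal muscle, tissues that also express Slc3a2, were far lower in the same library, and their part in the result was not tested. Of its light chains, Slc7a7 was higher, and the intervals of the others with 10 or more reads included 1. Slc7a8, which exchanges neutral amino acids on the blood side, had 73 and 86 reads and a ratio of 0.984 (0.712 to 1.36). Slc7a6, a relative of Slc7a7 with the same kind of exchange, had 44 and 39 reads. Slc7a11, which takes up cystine in exchange for glutamate, had 27 and 31, and Slc7a5, a carrier of large neutral amino acids known from dividing cells, had 13 and 15.

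Together with Slc7a10 these light chains had 243 reads in WT and 397 in the library labelled ERAP1+/-. For each of their reads there were 3.68 reads of Slc3a2 in WT (95% interval 3.19 to 4.26) and 1.58 in the library labelled ERAP1+/- (1.39 to 1.80). These intervals cover counting error only. Most of the difference in light chain reads lies in Slc7a7, which passed 2-fold, with 86 and 220 reads. These may include reads of Oxa1l. Slc7a7 reached the level of 4 only in the library where it was higher. The light chain sum and the share of Slc7a7 therefore largely restate its own difference. Slc7a7 made up 35.4% of the light chain reads in WT (Wilson 95% interval 29.6% to 41.6%) and 55.4% in the library labelled ERAP1+/- (50.5% to 60.2%). The other heavy chain, Slc3a1, which brings the luminal cystine carrier Slc7a9 to the membrane, had 3 and 2 reads, against 23 and 35 of Slc7a9.

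Slc1a1, the luminal carrier of glutamate and aspartate, was higher in the library labelled ERAP1+/- by less than 2-fold. It had 98 and 208 reads, or 12.6 and 22.4 CPM, and the ratio was 1.77 (95% interval 1.39 to 2.28). It spans 28835049 to 28913960 of chromosome 19 on the plus strand, and 226 bp of its last exon overlap 4430402I18Rik on the opposite strand. Slc1a5, an exchanger of glutamine and other neutral amino acids, had 461 and 658 reads and a ratio of 1.19 (1.06 to 1.35). Its relative Slc1a4 had 67 and 106 reads, with an interval that included 1 (0.964 to 1.82). The glial glutamate carrier Slc1a3 had 41 and 44 reads, and Slc1a2 3 and 8.

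The sodium-coupled neutral carriers of the Slc38 family differed in both directions, while their sum was close in both libraries. The summed level was 378 CPM in WT and 381 in the library labelled ERAP1+/-, a ratio of 1.01 (95% interval 0.959 to 1.06). Slc38a2, which cells raise when amino acids are scarce, had 1371 and 1394 reads and was 1.18-fold lower (1.09 to 1.27). Slc38a1, a glutamine carrier, had 891 and 1117 reads and a ratio of 1.05 (0.958 to 1.14). Slc38a10 was the family member that differed upward at a high level, with 466 and 780 reads and a ratio of 1.40 (1.24 to 1.57). Slc38a11 had 15 and 47 reads and a ratio of 2.62 (1.44 to 5.04), at a level below 4 on the log2 scale. Slc38a9, the arginine sensor of the lysosome, had 81 and 64 reads and was 1.52-fold lower (1.08 to 2.14), and Slc38a7, which releases glutamine from lysosomes, had 43 and 74 reads, with an interval that included 1.

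Slc36a1, which moves small amino acids with protons across the luminal membrane and out of lysosomes, had 858 and 793 reads and was 1.30-fold lower in the library labelled ERAP1+/- (95% interval 1.17 to 1.43). Slc36a4 had 74 and 68 reads. In the Slc43 family, Slc43a2, a carrier of large neutral amino acids on the blood side, had 98 and 111 reads and a ratio of 0.946 (0.715 to 1.25). Slc43a3, which carries purine bases and not amino acids, had 114 and 94 reads and was 1.45-fold lower (1.10 to 1.93).

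The cationic transporters of the Slc7 family work without a heavy chain. Slc7a1, the main carrier of arginine in many cells, had 165 and 232 reads and a ratio of 1.17 (95% interval 0.958 to 1.44). Slc7a2, an arginine carrier of macrophages, liver and muscle, had 65 and 38 reads and was 2.05-fold lower (1.35 to 3.14). Slc7a4 had 28 and 82 reads and a ratio of 2.45 (1.58 to 3.90), and Slc7a14 had 27 and 57 reads and a ratio of 1.76 (1.10 to 2.90). The last 3 genes stayed below the level of 4 in both libraries, and the differences go in both directions. Slc7a14 is best known from neurons. Markers of enteric neurons and glia summed to 133 and 200 CPM, and their part in its difference was not tested.

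Counted by interval, 10 of the 12 transporters past the level of 4 had a 95% interval that left out 1, which is 83.3%, against a background of 57.9% of all genes past that level. Of the 10, 5 were higher in the library labelled ERAP1+/- (Slc6a14, Slc7a7, Slc1a1, Slc38a10 and Slc1a5) and 5 lower (Slc6a8, Slc3a2, Slc36a1, Slc38a2 and Slc6a6). Over all genes 25.5% were higher by this measure and 32.4% lower. Slc7a7 and Slc1a1 reached the level of 4 only in the library where they were higher. When libraries were scaled by total count, 7 were higher and 4 lower, since Slc38a1 and Slc7a1 joined the higher genes and the interval of Slc6a6 came to include 1. The interval narrows as reads increase and takes no account of the variation between mice.

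**Figure D4:**
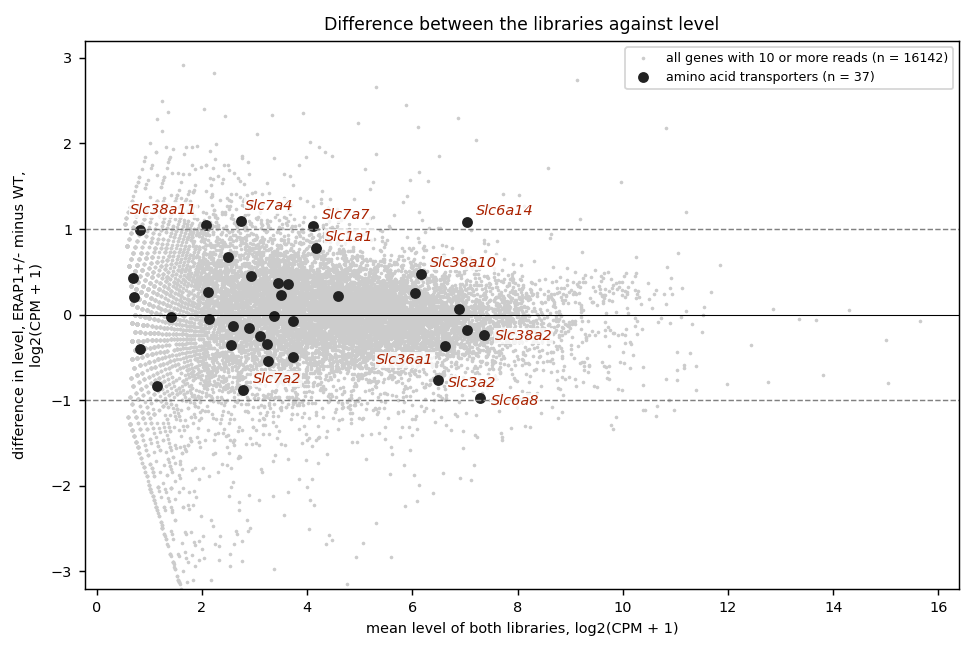
Difference between the libraries (ERAP1+/- minus WT, log2(CPM + 1)) against the mean level of both libraries, for 16142 genes with 10 or more reads (grey) and 37 transporters (black), with dashed lines at 2-fold. The axis leaves out 161 genes beyond 3.2 in either direction. The transporters spread on both sides of 0, with Slc6a14 the one at a high level above the upper line and Slc6a8 just above the lower line.

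Below the level of 4, 25 transporters had 10 or more reads over both libraries, and 8 of them had an interval that left out 1, against 31.0% of all genes of this kind. Slc7a4, Slc7a14, Slc38a11 and Slc6a11 were higher, and Slc7a2, Slc38a9, Slc43a3 and Slc6a17 lower. Slc6a11, a GABA carrier, had 2 and 14 reads. The serotonin carrier Slc6a4 had 77 and 121 reads, with an interval for the ratio that included 1 (0.978 to 1.77). The glycine carrier Slc6a9 had 73 and 104 reads and the proline carrier Slc6a7 had 53 and 56. In these genes few reads limit what could be seen.

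A further 16 transporters had 1 to 9 reads and 8 had no read in either library. Slc6a19, the main carrier of neutral amino acids on the luminal side of the small intestine, was counted 8 times in WT and 5 times in the library labelled ERAP1+/-. Slc6a18, Slc1a7, Slc36a3 and Slc7a12 were among those at 0 in both. With no read seen, the floor used here is 3 reads, a one-sided 95% limit for counting error, which is 0.386 CPM in WT and 0.322 in the library labelled ERAP1+/-. The related Slc6a20a, whose symbol lies outside the rule, had 0 and 2 reads, and Cltrn, a partner that Slc6a19 needs in kidney, 0 and 2.

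Other carriers of amino acids and peptides formed a list of 22 genes, of which 8 were past the level of 4. Of these 8, 1 was more than 2-fold lower and none more than 2-fold higher, and their median difference was -0.54, while over the 14 with 10 or more reads it was -0.34. Over all genes past that level, 5.34% were past 2-fold in either direction. The lower gene was Slc15a1, the proton-driven carrier that takes up di- and tripeptides on the luminal side, counted 744 times in WT and 354 times in the library labelled ERAP1+/-. It was 2.52-fold lower (95% interval 2.21 to 2.86), while Slc6a14 was higher. Slc25a12, which exchanges aspartate for glutamate across the mitochondrial membrane, had 506 and 378 reads and was 1.60-fold lower (1.40 to 1.84). Ctns, which releases cystine from lysosomes, had 339 and 259 reads and was 1.57-fold lower (1.33 to 1.85), and the mitochondrial carrier Slc25a44 had 313 and 271 reads and was 1.38-fold lower (1.17 to 1.63). By their intervals, 2 of the 8 genes were higher and 5 lower, against 25.5% and 32.4% of all genes. The 2 higher genes were Slc25a13, a paralog of Slc25a12 with the same exchange, with 183 and 346 reads and a ratio of 1.58 (1.32 to 1.90), and Slc25a15, the mitochondrial ornithine carrier, with 141 and 243 reads and a ratio of 1.44 (1.17 to 1.78).

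Peptidases of the brush border, which release amino acids from peptides, and partners of the carriers formed a list of 14 genes, with 6 past the level of 4 and a median difference of -0.29 over these, and of -0.09 over the 11 with 10 or more reads. By their intervals, 2 of the 6 were higher, Dpep1 and Dpp4, and 3 lower, against 25.5% and 32.4% of all genes. Of all genes past that level, 1.39% were more than 2-fold higher. Dpep1, a dipeptidase, was the gene more than 2-fold higher, with 192 and 518 reads and a ratio of 2.25 (95% interval 1.91 to 2.67). Mep1a, a subunit of the meprin proteases, had 1780 and 1207 reads and was 1.77-fold lower (1.64 to 1.90). Mep1b, the other meprin subunit, had 351 and 330 reads and was 1.27-fold lower (1.09 to 1.48), and Naaladl1, a further peptidase, had 224 and 213 reads and was 1.26-fold lower (1.04 to 1.53). Dpp4, a dipeptidyl peptidase, had 98 and 209 reads and a ratio of 1.78 (1.39 to 2.29).

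ATF4 raises several of these carriers, among them Slc7a11, Slc3a2 and Slc38a2, when amino acids are scarce. In a list of 18 other genes of this response, 6 were past the level of 4 and their median difference was -0.47, while over the 17 with 10 or more reads it was 0.0042, with 9 positive and 8 negative. Of the 6, 5 were lower by their intervals and none higher, with 1 gene more than 2-fold lower and none more than 2-fold higher. Over all genes past that level, 32.4% were lower by interval and 25.5% higher, and 3.96% were more than 2-fold lower. The gene more than 2-fold lower was Atf3, a stress-induced transcription factor, with 696 and 222 reads, 3.75-fold lower (95% interval 3.22 to 4.39). Atf4 itself had 1711 and 1678 reads and was 1.22-fold lower (1.14 to 1.31). Ddit4, an inhibitor of mTORC1, had 827 and 993 reads, with an interval that included 1, and Cebpg, a partner of ATF4, had 654 and 669 reads and was 1.17-fold lower (1.05 to 1.31). Below the level of 4, Chac1, which degrades glutathione, had 35 and 6 reads, and Pycr1, of proline synthesis, had 7 and 46, so that these genes differed in opposite directions.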

How the data were processed

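RNA pooled from 3 mice per genotype was made into 1 library each (QuantSeq 3' mRNA-Seq FWD, single reads of 75 bp). The deposited values are raw counts for each gene symbol, which the authors did not normalize. The methods name both STAR with HTSeq and Bowtie2 with RSEM, the labels name Bowtie2, RSEM and GRCm38, and which made the deposited counts is not stated. Per the labels, the groups are wild type and hetero type.

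TMM factors, computed from all genes, were 0.958 (WT) and 1.04 (ERAP1+/-; edgeR 4.0.16, R 4.3.3). A gene was counted as different where log2(CPM + 1) differed by more than 2-fold and was at least 4 in 1 or both libraries. With 1 library per genotype no quasi-likelihood test can be fitted and no p-value is given. Ratios carry exact conditional binomial 95% intervals, and shares Wilson intervals (scipy 1.17.1). Simulated data served to test both the rule and the intervals.

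Members with at least 10 reads were named, those past 2-fold or with an interval without 1 first, and of each list the highest genes and any past 2-fold. Slc6a20a, Cltrn, Oxa1l, Dpp4, Slc25a13, Slc25a15, Lamtor5 and the transporters under 10 reads were named after their values were seen, as were the light chain sums and the motif search. Shares and ratios of reads within a library were likewise not set beforehand. The members and lists were chosen with earlier results of these data known. Coordinates come from GENCODE M21 (GRCm38), where all 61 symbols were found. The alternatives tried were scaling by the total count, size factors from DESeq2 1.42.0, TMM without skin and skeletal muscle markers, a pseudocount of 0.1, other filters, a 4-fold threshold and edgeR's exact test with an assumed biological coefficient of variation (BCV).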

Additional observations from a re-analysis of the deposited data

How the results depend on the processing

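No paired analysis was possible because only 1 library was made per genotype, and no library could be left out. The number of transporters past 2-fold stayed at 2, Slc6a14 and Slc7a7, under DESeq2 size factors, the total count, TMM without skin and skeletal muscle markers and a pseudocount of 0.1. It was 4 without any filter and 4 when 10 reads in either library sufficed (Slc7a4 and Slc38a11 were added, both higher), 1 when the log2 value had to reach 6, and 0 with a 4-fold threshold. With edgeR's exact test at a false discovery rate of 0.05 it was 0 at an assumed BCV of 0.2 and 0 at 0.4, where 694 and 281 of all genes passed. At such an assumed spread a difference near 2-fold is hard to call, so these counts say little of Slc6a14 and Slc7a7. The number with an interval without 1 was 18 under either of these looser filters. The median difference was 0.27 with the total count, which moved that of all genes to 0.11, 0.0000 without any filter, -0.0270 with 10 reads and -0.18 at a log2 value of 6, so that its sign depended on which genes were kept. Of 37 transporters, 4 near 0 changed sign with the total count (Slc43a2, Slc7a5, Slc7a8 and Slc7a11) and none under the other scalings or the pseudocount. With the total count, 3 shifted by more than their counting error. Slc6a8 went from -0.97 to -0.85, Slc38a2 from -0.23 to -0.11 and Slc6a6 from -0.18 to -0.05. Depth limits the genes below the level of 4.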

Other observations

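Of 30 listed genes by which the mTORC1 kinase senses amino acids, 16 were past a log2 value of 4, with a median difference of 0.05 on the log2 scale. None of the 16 differed more than 2-fold, against 5.34% of all genes past that level, a share that would be fewer than 1 gene of 16. By their intervals 3 were higher (Lamtor1, Lamtor4 and Lamtor5) and 1 lower (Rraga), against 25.5% and 32.4% of all genes. Lamtor1 and Lamtor4 are subunits of the complex that holds the kinase at the lysosome. Lamtor1 had 1686 and 2238 reads and a ratio of 1.11 (95% interval 1.04 to 1.18). Lamtor4 was counted 430 times in WT and 775 times in the library labelled ERAP1+/-, a ratio of 1.51 (95% interval 1.34 to 1.70). Rraga, a GTPase of the same route, had 1309 and 1147 reads and was 1.37-fold lower (1.26 to 1.48).

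Genes of glutathione synthesis, which uses the cystine, glutamate and glycine that the carriers bring in, formed a list of 8, of which 4 were past that level. All 4 had intervals that included 1, and the median difference was 0.05. Gclc, the catalytic subunit of the first enzyme, had 400 and 494 reads and a ratio of 1.03 (0.902 to 1.18). Ggct, an enzyme that degrades gamma-glutamyl peptides, stayed below the level of 4 and had 112 and 54 reads, 2.48-fold lower (1.78 to 3.50).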
